A study of Mus musculus with 5 samples.

Results

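The 10 genes described here encode proteins of DNA replication: Mcm2, Mcm3, Mcm4, Mcm5, Mcm6, Mcm7, Pcna, Rrm1, Rrm2 and Tyms. They were chosen by gene symbol, and all 10 were found among the 18349 genes of the deposited mRNA-seq table. All 5 samples were of MEL cells, a mouse erythroleukemia line, and the labels name no treatment, genotype or age for them. The deposited lists are named for day 0, which the labels do not explain. Of these, 3 were CLIP-seq samples of PABPC1, a cytoplasmic protein that binds poly(A) tails. In CLIP-seq, ultraviolet light (here 400 mJ/cm2) ties a protein to RNA in contact with it, an antibody pulls the protein down, and the attached RNA is sequenced. The other 2 samples were mRNA-seq. Each assay was represented by values pooled over its samples, so none of the values below has a replicate error, and no difference between genes could be tested against the spread between samples. No mock precipitation or input was analysed here.

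The MCM2 to MCM7 proteins form the ring-shaped helicase that is loaded onto origins in G1 phase and unwinds DNA ahead of the replication fork in S phase. PCNA is the sliding clamp that holds DNA polymerases on the template. Ribonucleotide reductase, of which RRM1 is the large and RRM2 the small subunit, makes deoxyribonucleotides, and TYMS makes the thymidine nucleotide used for DNA. These genes are known targets of E2F transcription factors in dividing cells. PABPC1 coats the poly(A) tail, which is added to an mRNA downstream of a poly(A) signal, most often the hexamer AATAAA and less often ATTAAA.

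The line was checked by its markers. All 11 genes listed as erythroid markers had an RPKM (reads scaled by gene length and library size) of at least 1. Their median was 79.0, and Klf1 was highest at 428. The list included Spi1, at 105, which is not particular to erythroid cells. None of 8 chosen markers of other blood cells reached 1, and further genes of those cells were not surveyed. Of 8 fibroblast markers 2 did, Thy1 at 65.3 and Pdgfrb at 2.60, while Col1a2, Col3a1, Dcn and Lum were not listed. The pooled mRNA-seq values corresponded to 35251228 reads, and the CLIP-seq lists held 90337 peaks, with a median height of 9 tags, and 11907 deletion sites. A peak's height is the authors' own score, read here as tags (sequenced RNA fragments). A deletion site is a base at which tags lack a nucleotide, a trace that reverse transcriptase leaves where a protein was linked to the RNA.

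The sequences around the strongest deletion site of each gene are shown because they give the bases at which the CLIP-seq tags carried deletions, the closest record of contact in these data. Each is 30 nt of mRNA, 5′ to 3′, from GENCODE release M21 on mm10, and the capitals mark bases in the deletion list. For Tyms, which had no deletion site, the last 30 nt of the coding sequence are shown, ending with the stop codon, and the capitals mark a poly(A) signal.
Mcm2 (chr6:88884028-88884057, minus strand, coding sequence): caaattcaacaagttCagccgtgacctgaa
Mcm3 (chr1:20803041-20803070, minus strand, 3′ UTR): gtattgttgacctaAAtatccaagacattc
Mcm4 (chr16:15624583-15624612, minus strand, 3′ UTR): agtattccactataTAaacctcttctattc
Mcm5 (chr8:75127629-75127658, plus strand, 3′ UTR): tgtatgtacagaGgTAATaaagcaattgag
Mcm6 (chr1:128331607-128331636, minus strand, 3′ UTR): cccagccactgcttTTacccatgaaaAtaa
Mcm7 (chr5:138164614-138164643, minus strand, 3′ UTR): catgctgcactttttTattctgccaataaa
Pcna (chr2:132249362-132249391, minus strand, 3′ UTR): gtttctgctttacaaAtactggtgatttTc
Rrm1 (chr7:102468724-102468753, plus strand, 3′ UTR): gagccttcctgcaaaTtagtgaggagactt
Rrm2 (chr12:24713763-24713792, plus strand, 3′ UTR): ctatgatGgtacagtAaattctgacatttg
Tyms (chr5:30060996-30061025, minus strand, coding sequence): ccaacgATTAAAatggaaatggctgtttag
In Mcm5 the deleted bases run into AATAAA itself. In Mcm6 and Mcm7 the hexamer starts within the printed stretch, 10 and 9 nt downstream of the strongest site. The single capital A near the end of the Mcm6 stretch also lies in AATAAA, with 9 deletions in 736 tags. The Mcm4 site lies on ATATAA, which is not one of these signals.

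All 10 mRNAs were abundant. By the listed values, helicase genes held the top 4 places among them, with Mcm5 at 471 RPKM, Mcm6 at 371, Mcm3 at 341 and Mcm2 at 315. The other helicase subunits were lower, with Mcm4 at 142 and Mcm7 at 111. The 6 proteins are built into the helicase in equal numbers. The highest of their mRNAs was 4.25 times the lowest, Mcm7, whose level is uncertain for a reason given with its peaks. The Mcm6 level is scaled by an annotated length of 4375 nt over 2 transcripts, of which 1891 nt are 3′ UTR. In the transcript with the longest coding sequence the 3′ UTR ends 345 nt after the stop codon. The estimated reads were 57169 for Mcm6 and 57354 for Mcm5. The order of Mcm5 and Mcm6, the ratio and the Mcm6 residual thus depend on this length. Rrm1 stood at 292 RPKM and Rrm2 at 114, a ratio of 2.56 between the subunits of one enzyme. Pcna had 93.9 RPKM and Tyms, the lowest, 53.3. The Pcna level is uncertain, since a pseudogene sharing part of its sequence was listed at 460 RPKM. The Tyms level is scaled by an annotated length of 3163 nt, of which 2169 nt are 3′ UTR. The rank and the residual of Tyms depend on this length. By background given with its peaks, much of the Tyms mRNA may lack that 3′ UTR, which was not tested here. Among the 10211 protein-coding genes with an RPKM of at least 1, the listed values of the 10 genes ran from percentile 78.3 for Tyms to percentile 98.9 for Mcm5. The median was 217 RPKM over the 10 genes and 19.6 over all of these protein-coding genes. In a culture of cycling cells, more cells in S phase and more mRNA per cell cannot be told apart in such values. The estimated reads behind a value were between 5027 for Pcna and 57354 for Mcm5, a counting error of 1.41% and 0.418% of the value. That error does not cover how reads matching a pseudogene were placed. Neighbours in the order of RPKM cannot be ranked against a spread between samples, since none was to be had.

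**Figure D1:**
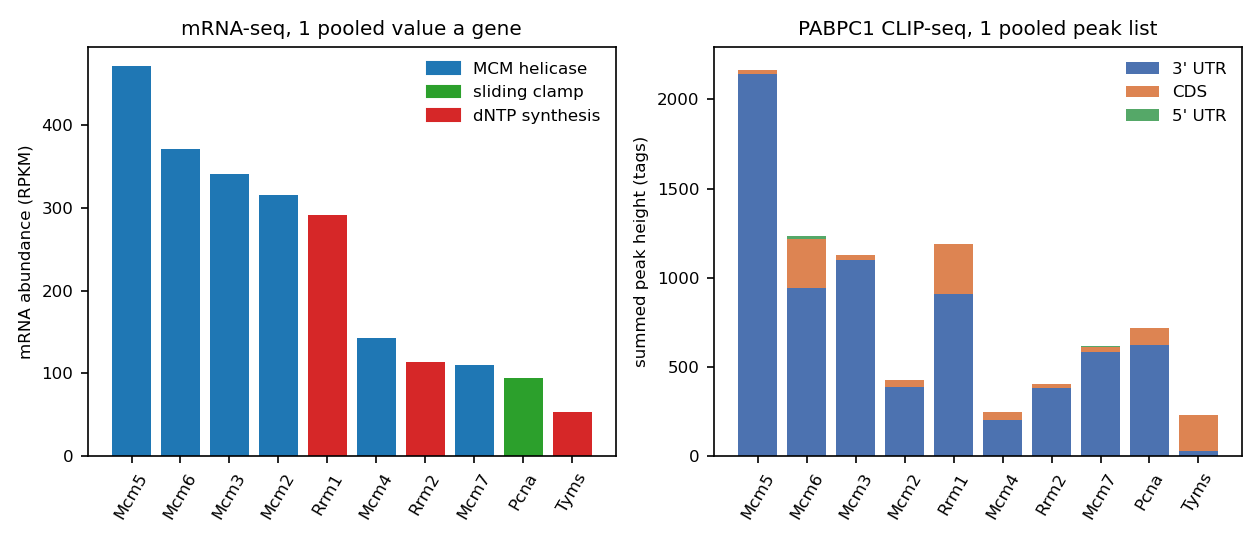
mRNA abundance in RPKM (left) and summed height of exonic PABPC1 peaks in tags, split by mRNA region (right), for the 10 genes in order of RPKM; each bar is 1 pooled value without an error. Mcm5 is highest in both panels, at 471 RPKM and 2164 tags, and the Tyms bar is the only one made mostly of coding sequence peaks.

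PABPC1 was recovered on every one of the 10 mRNAs, as on 96.6% of protein-coding genes with an RPKM of at least 1. The 10 genes held 61 exonic peaks, of which 42 lay in coding sequence, 17 in a 3′ UTR and 2 in a 5′ UTR. The coding sequence peaks were low, at 4 to 79 tags with a median of 15.5, and the 3′ UTR peaks had a median of 186 tags. Summed over the 10 genes, 87.3% of peak height lay in 3′ UTRs, against 77.8% over all protein-coding genes. The median share per gene was 89.0% for the 10 genes and 90.1% for all protein-coding genes, so the typical gene of the group did not stand apart. The tallest peak lay in the 3′ UTR in 9 of the 10 genes, beside 90.2% of all protein-coding genes. The exception was Tyms, whose tallest peak spanned the stop codon and was counted as coding sequence by its midpoint.

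Mcm5 (chr8:75109569-75128439, plus strand), a helicase subunit, carried the tallest peak of the group. Its peak at chr8:75127218-75127757 reached 2143 tags, rank 39 of 90337 in the whole list, and began 101 nt before the end of the stop codon. Only 1 other peak was listed in its exons, with 21 tags in the coding sequence. Thus 99.0% of its height (exact 95% binomial interval 98.5 to 99.4%) was in the 3′ UTR. The tall peak ended 682 nt before the end of the longest annotated 3′ UTR, and nothing was listed beyond it. This and all later intervals on shares of height treat summed heights as counts of independent tags, which they are not. Such intervals are only a rough guide and cover no spread between samples.

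Mcm3 (chr1:20802968-20820312, minus strand) had a 3′ UTR peak of 1087 tags at chr1:20802967-20803301, rank 204, that reached the annotated end of the transcript. Its 3 other peaks held 12 to 17 tags. Mcm6 (chr1:128331590-128359664, minus strand) had nearly the same summed height, 1235 tags against 1129 in Mcm3, but spread it differently. Its 3′ UTR peak at chr1:128331581-128332053 reached 944 tags, and 9 further peaks of 9 to 79 tags lay in its coding sequence and 1 of 15 tags in its 5′ UTR. The 3′ UTR held 76.4% of height in Mcm6 (interval 74.0 to 78.8%) and 97.4% in Mcm3 (96.3 to 98.3%). This difference was not tested, since no spread between samples was to be had.

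Mcm2 (chr6:88883474-88898780, minus strand) and Mcm4 (chr16:15623897-15637400, minus strand) were the helicase genes with the lowest heights. Mcm2 summed to 426 tags in 2 peaks, of which the larger, 388 tags at chr6:88883456-88884113, ran from the coding sequence through the stop codon to the transcript's end. Mcm4 summed to 249 tags in 4 peaks, with 203 in a peak at chr16:15624090-15624754 that also ran over the stop codon. Mcm2 thus had 315 RPKM and 426 tags, while Mcm3, at 341 RPKM, had 1129 tags.

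Mcm7 (chr5:138164583-138172422, minus strand) has the shortest 3′ UTR of the group, 136 nt. A single peak of 584 tags at chr5:138164583-138164722 covered all of it and ended at the annotated end. That is 4294 tags per kb of 3′ UTR, percentile 98.9 among protein-coding genes. The corresponding value was 1922 tags per kb in Mcm5 and 260 in Mcm4. A short 3′ UTR under 1 peak raises such a value. Set against abundance and exonic length, as described below, the summed height of Mcm7 was at percentile 54.1. Of the mRNA's 30-nt words, 38.3% also occur in another annotated gene, the processed pseudogene Gm5487. Unlike the Pcna copy described next, Gm5487 had no listed RPKM, peak or deletion site. The sources used here do not say how reads matching several places were treated, so the Mcm7 values are uncertain.

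Pcna (chr2:132249162-132253314, minus strand) had its signal in adjacent 3′ UTR peaks of 437 tags at chr2:132249319-132249400 and 186 tags at chr2:132249162-132249314. Its 3 coding sequence peaks held 20 to 52 tags. Pcna shares 38.4% of its 30-nt words with another annotated gene. The processed pseudogene Pcna-ps2 was itself listed at 460 RPKM, 4.90 times the value of Pcna, with 3 peaks summing to 162 tags and no deletion site. Reads of the gene and its copy may have been split between them, so the level of Pcna is uncertain.

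Among the genes of nucleotide supply, Rrm1 (chr7:102441695-102469771, plus strand) had the most peaks, 13. Its 3′ UTR peak at chr7:102468425-102468937 reached 875 tags, and 11 peaks in the coding sequence held 8 to 66 tags each. Rrm2 (chr12:24708241-24714146, plus strand) summed to 404 tags and had no single dominant peak. Its 3′ UTR carried peaks of 177 tags at chr12:24713754-24714000 and 154 tags at chr12:24714010-24714110, besides 2 smaller ones of 34 and 16 tags. Rrm2 shares 16.1% of its 30-nt words with other annotated genes and Rrm1 none. The 3′ UTR share of height was 76.3% in Rrm1 (interval 73.8 to 78.7%) and 94.3% in Rrm2 (91.6 to 96.4%).

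Tyms (chr5:30058202-30073617, minus strand) differed from the other 9 genes in where PABPC1 was recovered. Its annotated 3′ UTR makes up 68.6% of its exonic length, yet held 12.9% of its peak height (interval 8.90 to 17.9%), which placed the gene at percentile 5.32 among protein-coding genes for this share. Its tallest peak, of 67 tags at chr5:30060962-30061041, ran from 45 nt before to 34 nt after the end of the stop codon. By its midpoint the whole peak was counted as coding sequence, though it reaches into the 3′ UTR. The 3′ UTR share of Tyms depends on that placement, and counting the peak as 3′ UTR was not tried. The next tallest, of 58 tags, lay in the coding sequence, and the 2 peaks inside the 2169-nt 3′ UTR held 24 and 6 tags. A further peak of 17 tags overlapped the last 26 nt of the transcript and had its midpoint past the end. Of the 30-nt words of the Tyms mRNA, 19.1% also occur in other annotated genes, 9.90% in the pseudogene Tyms-ps, so its values and 3′ UTR share carry the same uncertainty as those of Mcm7 and Pcna. With the peak over the end counted, an alternative chosen after seeing the data, the 3′ UTR share was 18.9% (14.2 to 24.3%). ATTAAA, printed above in capitals, starts 23 nt before the last base of the stop codon and lies inside the 67-tag peak. As background, the mouse Tyms mRNA is known for a poly(A) tail added directly after its stop codon, so that much of it has no 3′ UTR. In the other 9 genes the 3′ UTR held a larger share of height than of exonic length, as it did in 90.1% of all protein-coding genes.

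**Figure D2:**
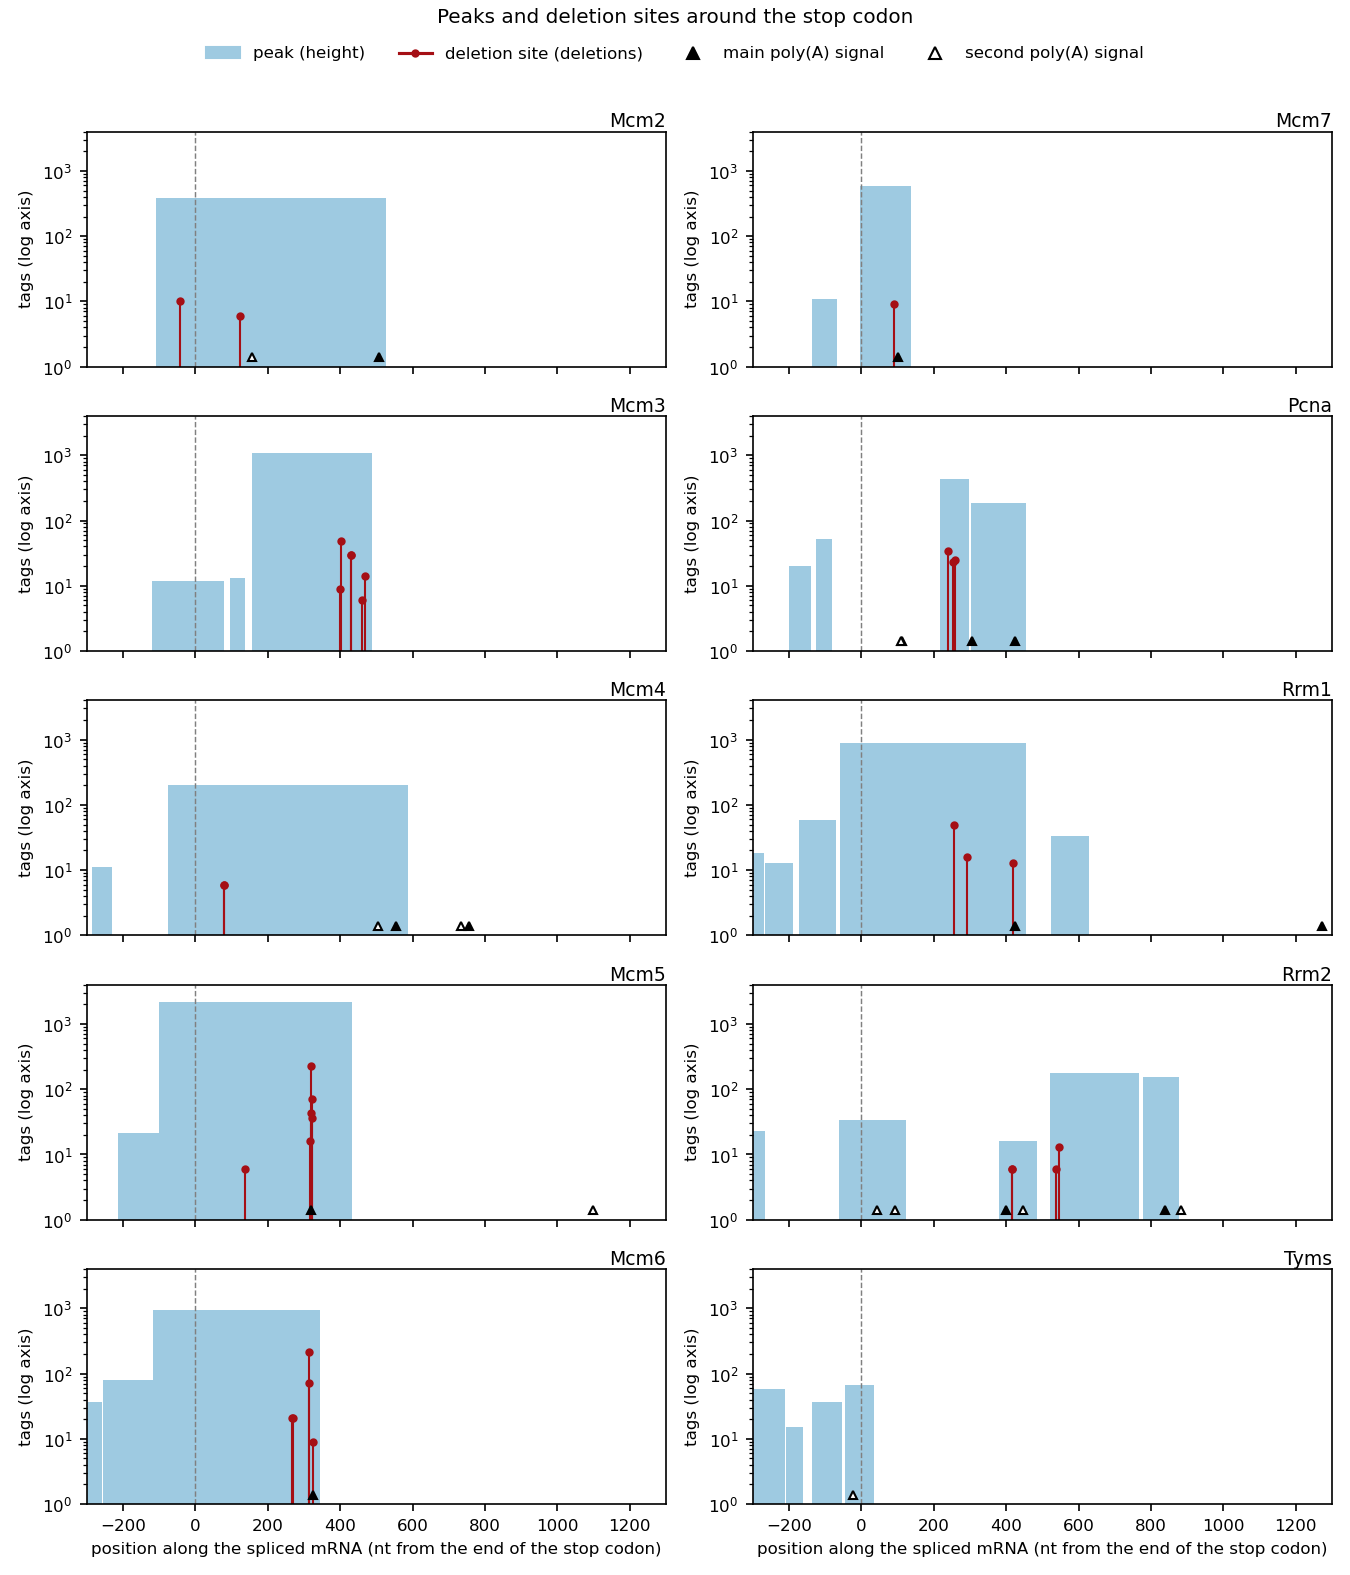
Peaks (blue boxes, height in tags on a log axis), deletion sites (red, number of tags with a deletion) and poly(A) signals (triangles; filled AATAAA, open ATTAAA) around the end of the stop codon (dashed line) along the spliced mRNA of each gene. In Mcm2, Mcm6 and Mcm7 the tallest peak runs past a filled triangle to the transcript end, and in Tyms it stops 34 nt after the stop codon.

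The distance from a poly(A) signal to the 3′ edge of the tall peaks was read next. AATAAA started 38 nt before the peak's edge in Mcm2, 32 nt in Mcm4, 30 nt in Mcm6, 36 nt in Mcm7 and 29 nt in Rrm1. In these 5 of the 9 genes with a tallest peak in the 3′ UTR the distance was thus between 20 and 50 nt. That range was chosen after the values were seen. The share over all protein-coding genes with such a peak was 44.3%, so the group was not set apart. In Mcm2, Mcm6 and Mcm7 the peak reached the annotated transcript end. AATAAA starts 21, 22 and 37 nt before that end, so in these genes the distance largely restates the annotation. The lower of the Pcna peaks had AATAAA 31 nt before its edge and the 154-tag peak of Rrm2 had it 40 nt before, but these were not their tallest peaks. In Mcm5 the distance was 113 nt, and Mcm3 has neither hexamer in its 3′ UTR. In Rrm1 and Mcm4 the signal used by this measure was an upstream one. It starts 864 nt before the annotated end in Rrm1 and 226 nt before it in Mcm4. A further AATAAA lies 17 nt before the annotated end in Rrm1 and 25 nt before it in Mcm4, and neither was inside a peak. A match of letters describes the sequence and does not show that the signal is used.

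To set recovery beside abundance, the log2 of summed exonic height was fitted to log2 RPKM and log2 exonic length over 9868 protein-coding genes with a peak, each value after adding 1 to height and RPKM. The residual is how far a gene's height lay above or below that of genes of its abundance and length, and a residual past 1 in either direction, a difference of 2-fold, was called. Pcna was called high at 1.08, which is 2.11 times the fitted height, beside 22.7% of all genes called high. Mcm2 at -1.56 and Mcm4 at -1.48 were called low, at 0.338 and 0.358 times the fitted height, beside 21.1% of all genes called low. The other 7 genes were not called. Among helicase subunits Mcm5 had a residual of 0.31, Mcm7 of 0.23, Mcm3 of -0.18 and Mcm6 of -0.39, and among nucleotide genes Rrm1 had -0.11, Rrm2 -0.21 and Tyms -0.41. The median residual was -0.19 for the 10 genes and 0.10 for all genes, and with 3 of 10 called the group was not set apart from the background. Spearman's correlation of RPKM with summed height was 0.73 across the 10 genes and 0.66 across the 9868 genes, both read from the same pooled lists and given as a description.

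The calls depended on how height was measured. With the tallest peak in place of the sum, none of the 3 calls held (Pcna 0.96, Mcm2 -0.67 and Mcm4 -0.77), and Mcm5 at 1.36, Mcm7 at 1.05 and Tyms at -1.30 were called instead. Pcna was also under the threshold without length in the fit, at 0.71. The part of the pseudogene copy in the Pcna value was not tested.

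**Figure D3:**
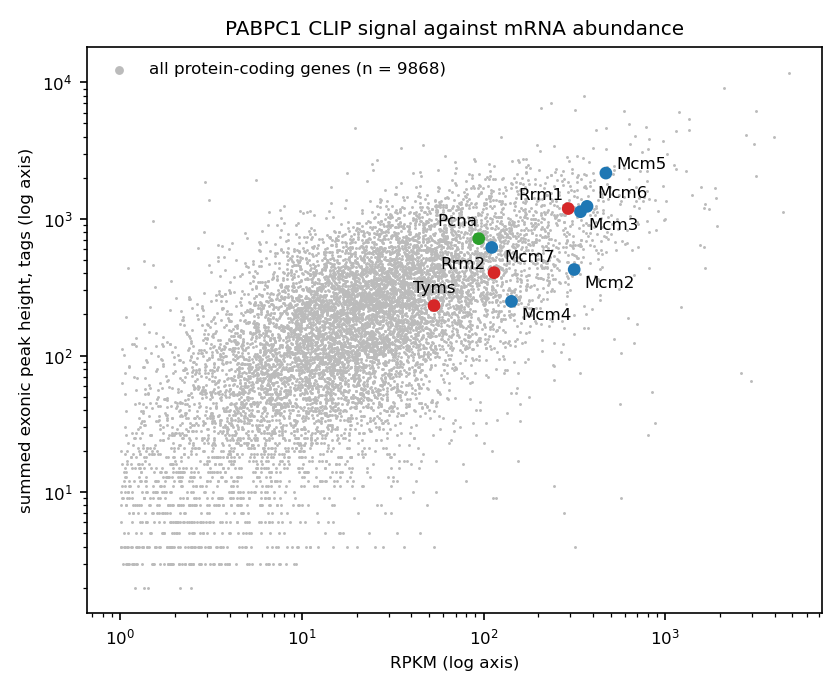
Summed height of exonic PABPC1 peaks (tags, log axis) against RPKM (log axis) for the 10 genes (blue, MCM helicase; green, sliding clamp; red, nucleotide synthesis) and 9868 protein-coding genes (grey), each point 1 gene. Mcm2, at 315 RPKM and 426 tags, lies below Mcm3 and Mcm6 at similar RPKM, and Pcna lies above Rrm2 and Mcm4.

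Deletion sites were listed in 9 of the 10 genes, all but Tyms. The share was 37.0% among protein-coding genes with an RPKM of at least 1, but it was higher among abundant mRNAs, 55.1% at an RPKM of at least 20 and 69.9% at an RPKM of at least 50, the range in which all 10 genes lie. They held 32 sites, 31 in 3′ UTRs and 1 in the coding sequence of Mcm2, with 1105 deletions in all. Sites within 10 nt of each other were joined, which left 19 runs. The percentages below are tags with a deletion among tags covering the base, with exact 95% binomial intervals that cover counting error only.

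The sites with the most deletions were in helicase genes. In Mcm5 227 of 1971 tags (11.5%, interval 10.1 to 13.0%) lacked the base at position 75127644, the first A of AATAAA, 320 nt after the stop codon and 44 nt before an annotated transcript end. In Mcm6 215 of 864 tags (24.9%, 22.0 to 27.9%) lacked the base at position 128331621, 28 nt before the end. By number of deletions both are among the highest of the data, at percentiles 99.5 and 99.4 of 3′ UTR sites. By share of covering tags, the Mcm5 site was at percentile 54.3 and the Mcm6 site at 81.1. Mcm7 had its only site at the same distance of 28 nt from the end, with 9 of 109 tags (8.3%, interval 3.85 to 15.1%).

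Mcm3, which lacks both poly(A) hexamers, had its sites 20 to 88 nt from the transcript end. Its strongest site, position 20803055, had 48 deletions in 1045 tags (4.6%, interval 3.41 to 6.04%). At position 20803025, within 20 nt of ATATAA, 30 of 245 tags had one (12.2%, 8.42 to 17.0%), so the site with more deletions was the one with the lower share. The sites of Mcm2 and Mcm4, like that of Mcm7, had few deletions. The Mcm2 site in the coding sequence, 42 nt before the end of the stop codon, had 10 in 84 tags (11.9%, 5.86 to 20.8%). Its other site, 124 nt after the stop codon, had 6 in 36 tags (16.7%, 6.37 to 32.8%). The Mcm4 site, 80 nt after the stop codon and 700 nt from the transcript end, had 6 in 97 tags (6.2%, 2.30 to 13.0%).

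Pcna had 3 sites, all inside its 437-tag peak and 195 to 214 nt from the transcript end. The strongest, at position 132249376, had 34 deletions in 198 tags (17.2%, interval 12.2 to 23.2%). The Rrm1 and Rrm2 genes held the sites with the highest shares. At Rrm1 position 102468739, 50 of 66 tags (75.8%, 63.6 to 85.5%) lacked the T, percentile 97.1 among 3′ UTR sites, although only 66 tags covered a base inside a peak of 875. At Rrm2 positions 24713648 and 24713649, 6 of 6 tags lacked the base (100%, 54.1 to 100%), at the start of a CA repeat. Whether the genome of the line differs from the reference at these bases was not tested. Elsewhere in Rrm2 the strongest site, position 24713778, had 13 deletions in 166 tags (7.8%, 4.24 to 13.0%).

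Further stretches show these contrasts, the Rrm1 site beside an upstream poly(A) signal and the Rrm2 site at a repeat, with capitals again marking bases of the deletion list.
Rrm1 (chr7:102468887-102468916, plus strand, 3′ UTR): aacttctataggtcaTtttgaaataaacat
Rrm2 (chr12:24713633-24713662, plus strand, 3′ UTR): aaaattggcactttgCAcacacacacacat
The first of these, position 102468902 of Rrm1, had 13 deletions in 635 tags (2.0%, interval 1.09 to 3.48%) and lies 6 nt before AATAAA. In the second, both bases are part of the CA repeat, where the deleted unit cannot be placed by letters alone.

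Over the 18 runs in 3′ UTRs, the median share of tags with a deletion at the strongest site was 8.0% in these genes and 11.7% over 6018 runs of all protein-coding genes. A poly(A) signal, AATAAA or ATTAAA on the RNA strand, lay within 20 nt of 6 of the 18 (33.3%) and of 37.8% of all runs, and within 50 nt of 7 of the 18 (38.9%) and of 53.3% of all runs. ATATAA, which differs from both signals, lay within 20 nt of 2 of the 18 (11.1%) and of 8.97% of all runs. An annotated transcript end lay within 100 nt of 8 of the 18 (44.4%) and of 45.6% of all runs. The deleted base at the strongest site was A in 9 and T in 8 of the 18 runs (50% and 44.4%), against 46.7% A and 48.8% T over all runs. None of these differences was tested, and sites of 1 gene share its mRNA and are not independent.

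**Figure D4:**
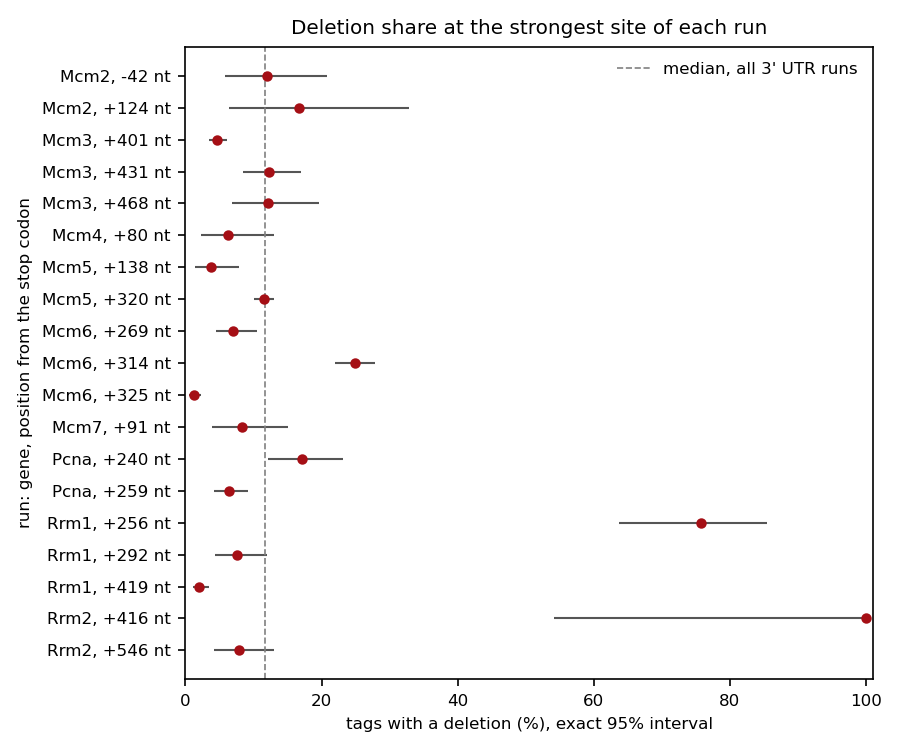
Share of tags with a deletion (percent) at the strongest site of each of the 19 runs, named by gene and position after the end of the stop codon; bars are exact 95% binomial intervals and the dashed line is the median over all 3′ UTR runs, 11.7%. The Rrm1 site at 75.8% and the Rrm2 site at 100% lie far to the right; the Rrm2 site was covered by 6 tags.

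Besides the peak past the end of Tyms, 2 peaks in these genes lay outside the exons, 1 in an intron of Rrm2 with 7 tags and 1 in an intron of Mcm7. The Mcm7 peak, at chr5:138165330-138165354, was 25 nt wide with 31 tags and covered all 22 nt of mmu-miR-25-3p, a microRNA encoded in that intron together with miR-93 and miR-106b. Neither of those had a peak. The mature sequence (RefSeq, GRCm38.p6) is given with its seed, bases 2 to 8, in capitals, beside that of mmu-miR-92a-3p, which has the same seed and the tallest peak among those lying inside a hairpin.
mmu-miR-25-3p (chr5:138165332-138165353, minus strand): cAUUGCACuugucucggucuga
mmu-miR-92a-3p (chr14:115044476-115044496, plus strand): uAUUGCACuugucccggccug
Of 1005 RefSeq hairpins, 38 held a peak inside them, allowing 5 nt at either side, with a median height of 8.5 tags and a maximum of 185, at Mir92-1. Mir25 ranked 5, level with Mir27a. The peak was left out of the summed height of Mcm7, and whether its tags came from the microRNA or from unspliced Mcm7 RNA was not tested.

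Other genes of replication and the cell cycle were read in the same way, as lists of named genes. Of 64 further replication genes, 13 (20.3%) were called high and 11 (17.2%) low, close to the 22.7% and 21.1% of all genes, and 32 (50%) had a deletion site, beside 37.0% of genes with an RPKM of at least 1 and 55.1% of those with at least 20. Residuals spread widely within a list. Among replicative polymerase genes, Pole4 at 2.80 was highest of all the lists while Pold1 at -2.42 and Pole2 at -2.15 were among the lowest. Origin licensing genes, whose products load the MCM ring, had a median residual of -0.17 with 2 of 10 called high and none low, and Orc4, of the origin recognition complex, reached 2.67. Genes of the clamp loader, which places PCNA on DNA, included Rfc3 at 2.66, with 708 tags in a coding sequence peak and 8 deletion sites. The other dNTP supply genes had a median of 0.23, with 2 of 9 called high and none low. Dtymk, whose product acts on the nucleotide made by TYMS, was at 0.93 with 6 deletion sites. Of the G2/M list, 2 of 18 genes were called high and 5 low, with a median of -0.52, and Cdc20 at -2.68 was the lowest of all. The G1/S list had 6 of 16 called high and 2 low, a median of 0.47, and Ccnd1 was not tested.

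**Figure D5:**
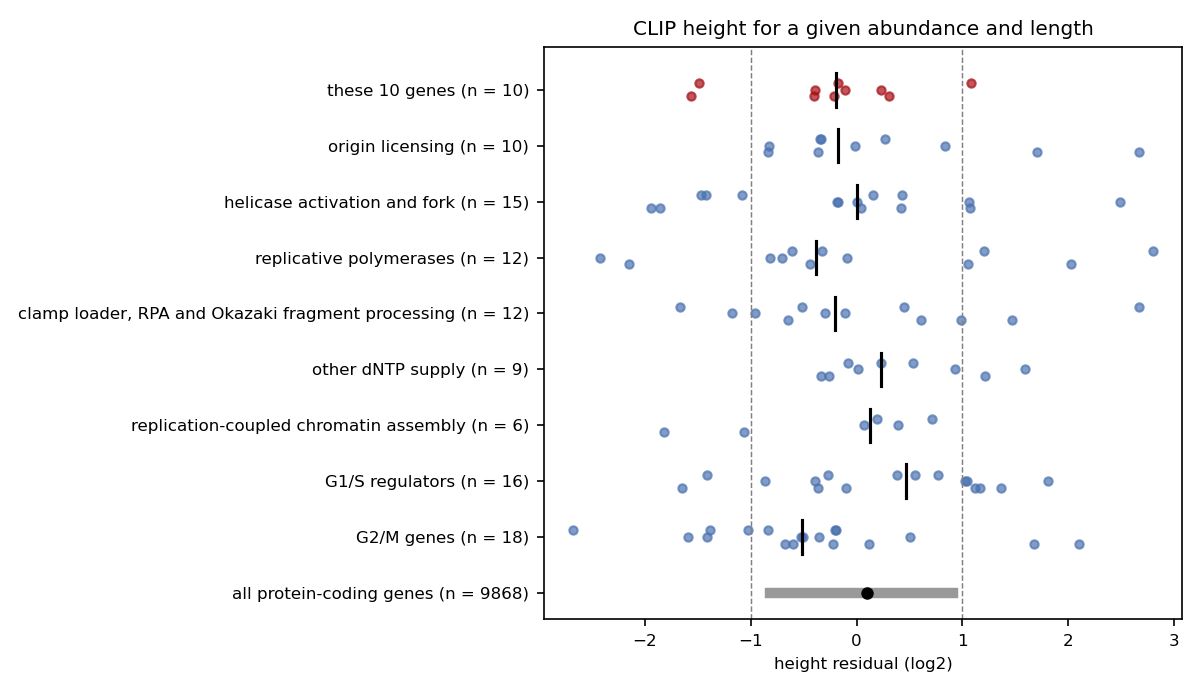
Height residual (log2, observed over fitted summed height) of each gene of the 10 and of each cell cycle list; black bars are medians, dashed lines mark 2-fold, and the grey box with a black dot gives the quartiles and median of all 9868 protein-coding genes. The 10 genes span -1.56 to 1.08, inside the spread of the other lists.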

How the data were processed

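The samples analysed were 3 PABPC1 CLIP-seq and 2 mRNA-seq samples of MEL cells, grouped by their titles. The 10 genes and the other gene lists were chosen with earlier results of these data known. HTSeq 0.6.0, TopHat2 2.0.12, Novoalign 3.02.02 and cutadapt 1.4.2 are named, with build mm10 and no roles, in the submitters' processing notes. What thresholds were applied to the lists is not stated there. The mRNA-seq table holds RPKM computed by the authors, 1 value a gene for both samples. The deposited peak list gives a strand and a signal per peak, read as its height in tags. The deposited deletion list gives counts of tags with a deletion and of tags covering the base; both lists pool the 3 samples, per the labels.

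From these, peaks (by midpoint) and sites were placed by strand on GENCODE M21 basic transcripts, 3′ UTR before 5′ UTR, coding sequence, non-coding exon and intron. Height was fitted by least squares with numpy 2.4.6 (pandas 2.3.3, Python 3.11.15), and the fit was tested on simulated data. The simulation had much less scatter than the real residuals, whose standard deviation was 1.36, so it checks the computation and not the calls. Intervals are Clopper-Pearson (scipy 1.17.1). Precision is limited by tags per gene. The rule for naming took all 10 genes, and from the other lists genes with a deletion site plus the 3 highest and 3 lowest residuals. No p-value was computed. RPKM under 1 were left out of gene sets. Alternatives changed the pseudocount, RPKM minimum, peak minimum, height measure, length terms, gene types, placement and windows.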

Additional observations from a re-analysis of the deposited data

How the results depend on the processing

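No paired analysis was possible because each assay was deposited as pooled values that cannot be split by replicate; for the same reason no replicate could be left out. The number of the 10 genes past 2-fold was 3 under the settings tried, including leaving out genes with an RPKM under 50, which was added after seeing the data, except without length in the fit, where it was 2. The 3 genes were not the same throughout: of 100 residuals recomputed per gene, 91 kept their side of the threshold, 4 passed it and 5 lost it, and none past 2-fold changed sign. With 3′ UTR length and remaining exonic length as separate terms, Mcm7 was at 1.07 and Pcna at 0.96. With peaks under 10 tags left out, the share of height in 3′ UTRs was 88.2% in place of 87.3% (interval 86.6 to 88.0%), and 49 of the 61 exonic peaks remained. Any overlap with an exon gave 62 peaks, and a window of 50 nt gave 7 in place of 6 runs with a poly(A) signal (38.9%, against 53.3% of all runs). Genes with a deletion site stayed at 9 of 10. Depth limits the deletion share at the Rrm2 repeat, with 6 tags, and the 3′ UTR shares of Tyms and Mcm4, with 232 and 249 tags in all.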

Other observations

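The deletion list held 2 sites in Tyms-ps, a processed pseudogene of Tyms on chromosome 10 that is not in the RPKM table and had no peak. At position 87967611, 16 of 85 tags had a deletion (18.8%, exact 95% interval 11.2 to 28.8%), and at position 87967612, 15 of 100 (15.0%, 8.65 to 23.5%). The 30 nt around the first are shown because they occur without a mismatch in the Tyms mRNA, 160 nt before the end of its stop codon, and capitals mark the listed bases.
Tyms-ps (chr10:87967596-87967625, plus strand): atatttacctgaatcATatagagccgctga
In the gene, the matching base lies 23 nt before the first base of the next exon, a junction that the pseudogene lacks. Whether tags of the Tyms mRNA were placed here was not tested.

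The seed AUUGCAC, shared by miR-25-3p, miR-92a-3p and miR-32-5p, occurred at 4 loci of mature microRNAs under peaks. These summed to 245 tags, more than any other seed. Of these, 185 and 22 tags were at the loci of miR-92a-3p, 31 at miR-25-3p inside Mcm7 and 7 at miR-32-5p. The loci of miR-92a-3p hold the same mature sequence, and how tags matching both were placed is not given.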
